A study of Caenorhabditis elegans with 4 samples.

Results

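The ZIP-2 binding sites on chromosome X of Caenorhabditis elegans were taken as all rows of that chromosome in 3 deposited ChIP-seq peak lists, 1 list for each of 2 ChIP replicates and 1 combined list. A site is a peak of the combined list, which held 177 sites on X of 755 in all. The replicate 1 list held 87 X peaks of 315 and the replicate 2 list held 62 of 192, so that X gave 326 of the 1262 rows. A replicate peak that overlapped a site by 1 bp or more was counted as its support. The X sites were set against the 493 sites on autosomes II, III, IV and V, and chromosome I was not part of the comparison.

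The animals were hermaphrodites of strain OP432 at the fourth larval stage (L4), kept at 20 °C with HB101 bacteria as food. Their genotype was unc-119(ed3) III with the transgene wgIs432, brought in by bombardment, which holds zip-2::TY1-GFP-3xFLA and a copy of unc-119(+). The series held 2 ChIP samples, in which chromatin was precipitated with antibodies to GFP, and 2 input samples of lysate without precipitation. All 4 samples carry the transgene, and no group without it was analysed. The peaks therefore describe tagged ZIP-2 expressed from a transgene in a mix of all tissues, where strong binding in a few cells and weaker binding in many cells cannot be told apart.

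ZIP-2 belongs to the bZIP transcription factors, which bind DNA as dimers through a basic region next to a leucine zipper. In the worm it is known for switching on intestinal genes during infection with Pseudomonas aeruginosa and when translation is blocked. Chromosome X differs from the autosomes in ways known from other work: in hermaphrodites a condensin-containing dosage compensation complex binds it and lowers its transcription, and it is largely silent in the germ line. The worm's autosomes have gene-dense centres and repeat-rich arms, a division that is much weaker on X.

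Positions refer to WormBase build WS180. Each peak carries a q-value set by the authors, shown here as −log10 q, which rises with the strength of the call. The lists hold no read counts, summits or gene names, so depth is unknown and the intervals below cover the counting of peaks only. Nothing in the labels tells if the replicates were grown as separate cultures, so their agreement, and the spread behind any p-value, may be technical. No gene is assigned to any site, and no sequence is shown, because no genome or annotation of WS180 was used here.

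The 15 strongest X sites were all present in both replicate lists and were spread along the whole chromosome. Their −log10 q in the combined list lay between 49.9 and 98.2. In the replicate 1 list the same sites lay between 32.7 and 62.8, and in the replicate 2 list between 22.6 and 52.7. Replicate 1 gave the higher value at 14 of the 15. The first 25% of the X span held 3 of them, the next 25% held 3, the third 25% held 4 and the last 25% held 5. Neighbours among them were 48.7 kb to 2087 kb apart from midpoint to midpoint, with a median of 1275 kb. Their widths ran from 731 to 2672 bp, with a median of 1026 bp.

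The strongest X site, at 14476325 to 14477850, had a −log10 q of 98.2 in the combined list, 62.8 in replicate 1 and 52.7 in replicate 2. Among all peaks of a list it ranked 2nd in the combined list, 3rd in replicate 1 and 2nd in replicate 2. The next strongest, at 14525322 to 14526336, reached 93.2 in the combined list, 53.1 in replicate 1 and 32.5 in replicate 2. These sites were the closest pair among the 15, on the right part of the chromosome at 82.5% and 82.8% of its span.

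A pair on the middle part of X followed. The site at 8035832 to 8036894 had a −log10 q of 86.0 in the combined list, 48.7 in replicate 1 and 34.6 in replicate 2. At 7822608 to 7823609 the combined list gave 76.9, replicate 1 gave 51.5 and replicate 2 gave 43.4. The site at 7822608 stood at rank 4 of the replicate 2 list, above its rank of 11 in the combined list, so the order of the strong sites was not the same in each list. On the left part of X the site at 2996289 to 2997534 had 85.2 in the combined list, 47.9 in replicate 1 and 35.8 in replicate 2. At 1453744 to 1455114 the combined list gave 80.4, replicate 1 gave 53.8 and replicate 2 gave 42.1. The site at 4208361 to 4209858 had 69.7 in the combined list, 40.5 in replicate 1 and 31.9 in replicate 2. These 3 sites were the members of the 15 on the first 25% of the span.

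The remaining 8 had combined values from 49.9 to 73.9 and a replicate 1 value of at least 32.7. The narrowest of the 15, at 13700384 to 13701114, measured 731 bp and had a −log10 q of 63.0 in the combined list, 40.0 in replicate 1 and 24.9 in replicate 2. The site at 11093650 to 11094439 had 73.9 in the combined list, 47.5 in replicate 1 and 31.6 in replicate 2. Sites at 6296043 to 6297047, 12362491 to 12363602 and 11936957 to 11937982 had combined values of 73.6, 64.4 and 64.1. Those at 16056038 to 16056853 and 9465351 to 9466229 had 62.9 and 49.9. The site at 16929296 to 16931967 was the exception in the order of the replicates, with 34.8 in replicate 2 and 32.7 in replicate 1. It was also the only X site that overlapped more than 1 peak of a replicate list. Replicate 1 split it into a peak at 16929285 to 16930275 with a −log10 q of 13.7 and one at 16930577 to 16931974 with 32.7, where replicate 2 called 1 peak of 2433 bp.

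**Figure D1:**
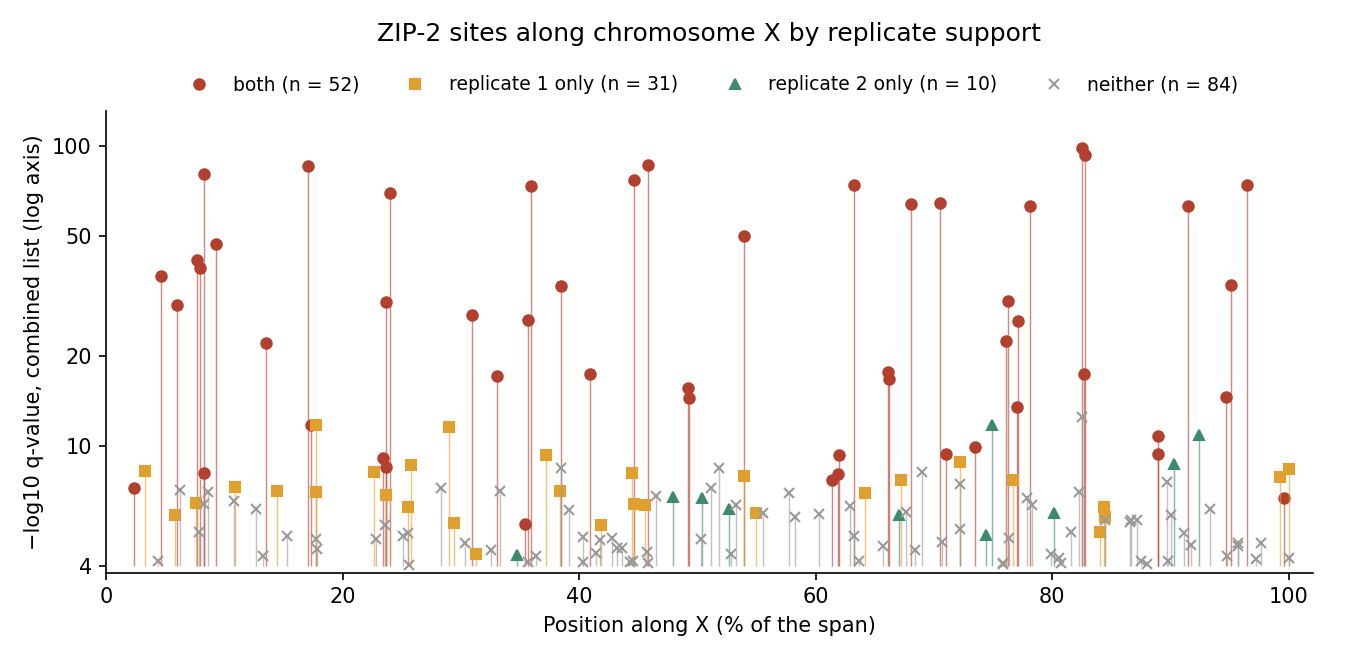
Each of the 177 X sites of the combined list by position (percent of the X span, horizontal axis) and −log10 q-value (vertical log axis), with colour and marker giving the replicate lists it overlapped. The 52 sites in both replicate lists hold all 38 of the strongest positions and occur along the whole span, while the 84 sites in neither list lie at or below 12.5.

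Chromosome X held more sites per Mb than autosomes II to V. The combined list gave 10.1 sites per Mb on X (177 sites over 17.5 Mb) and 7.37 on II to V (493 sites over 66.9 Mb), a rate ratio of 1.37 (exact 95% interval 1.15 to 1.63). The two-sided exact binomial test gave p = 0.000494, or p = 0.00346 after Benjamini-Hochberg adjustment over the 7 comparisons of X with II to V. Each replicate list showed the same direction on its own. Replicate 1 had 4.96 X peaks per Mb against 3.11 on II to V (rate ratio 1.60, 1.23 to 2.06, adjusted p = 0.00287 by the same exact test). Replicate 2 had 3.53 X peaks per Mb against 1.85 on II to V (rate ratio 1.91, 1.38 to 2.61, adjusted p = 0.000431 by the same exact test). The excess of sites on X was known from earlier results on these lists and is given here as the base of the comparisons by chromosome.

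Taken 1 autosome at a time, X had 1.60 times the density of III (6.31 sites per Mb; adjusted p = 0.00209 in the exact binomial test) and 1.42 times that of IV (7.12 sites per Mb; adjusted p = 0.0222 in that exact test). Against II (7.98 sites per Mb) the rate ratio was 1.26 (0.998 to 1.61, p = 0.0483, adjusted p = 0.0676, same exact test). Against V (7.81 sites per Mb) it was 1.29 (1.04 to 1.61, p = 0.0192, adjusted p = 0.0579, same exact test). Against II and V the threshold of 0.05 was missed only after adjustment. The central 50% of II to V held 291 sites, or 8.69 per Mb, and the outer 50% held 202, or 6.04 per Mb. X had 1.67 times the density of the outer parts (1.36 to 2.06, adjusted p = 5.42e-06, same exact test). Against the central parts the rate ratio was 1.16 (0.957 to 1.40), which did not pass (adjusted p = 0.168, same exact test). The comparisons with single autosomes, centres and outer parts were chosen after seeing the data. Each took the place of the main density p in the family of 7, and they were not adjusted against each other. Which autosomes passed is therefore a description and not a ranking of the autosomes. In the stronger 50% of the combined list the rate ratio was 1.36 and the adjusted p 0.0533 (same exact test), short of the threshold with 88 sites on X and 247 on II to V.

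**Figure D2:**
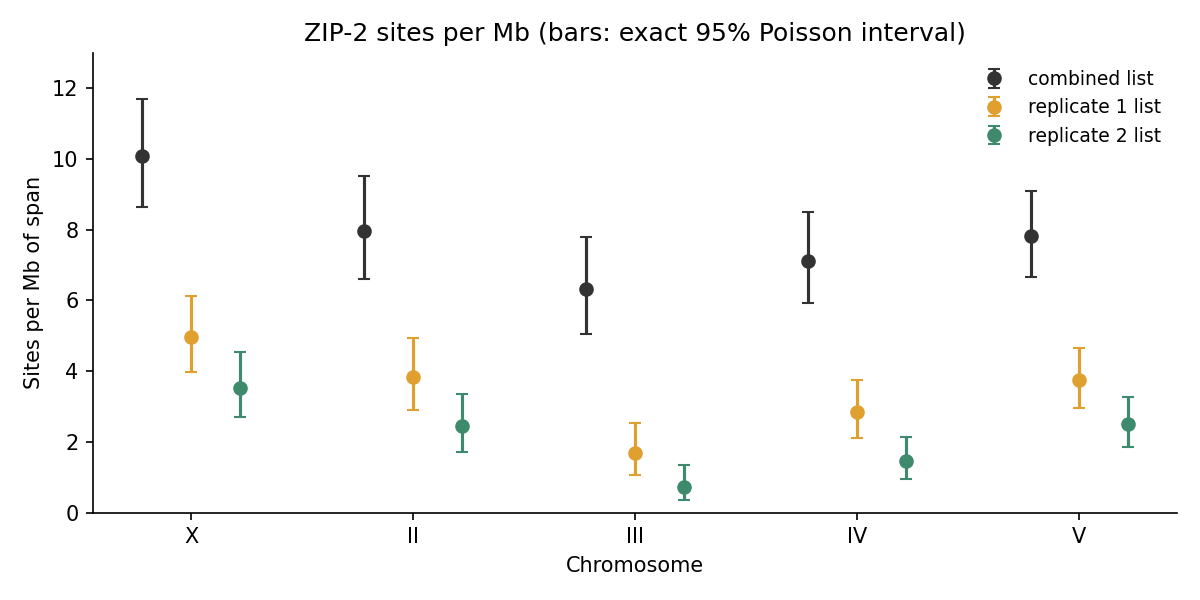
Sites per Mb of span (vertical axis) on X and autosomes II to V in each of the 3 lists, with exact 95% Poisson intervals as bars. X has the highest value in every list, at 10.1 in the combined list, 4.96 in replicate 1 and 3.53 in replicate 2, and its intervals overlap those of II and V in each list.

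X was also prominent among the strongest sites. Of the 10 strongest sites on X and II to V together, 5 were on X and 5 on V. Of the strongest 20, 13 were on X, and of the strongest 50, 23 were. The share then came down to 35 of the strongest 100 and 50 of the strongest 200, against 177 of all 670 (26.4%). The median strength of X sites was nevertheless close to that of the autosomes, with a −log10 q of 6.72 on X (quartiles 4.99 and 10.8) and 6.78 on II to V (4.95 and 10.3). The upper part of the distribution differed more in the replicate lists. There the upper quartile was 18.6 on X and 9.93 on II to V in replicate 1, and 21.1 on X and 9.69 on II to V in replicate 2. No test was applied to these q-values, which depend on depth as well as enrichment.

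Support from both replicates was more frequent on X than on II to V. On X, 52 of 177 sites had support in both lists (29.4%, exact 95% interval 22.8 to 36.7%), and on II to V 95 of 493 did (19.3%, 15.9 to 23.0%). Over all 670 sites the share was 21.9%. The odds ratio was 1.74 (Fisher's exact test, two-sided, adjusted p = 0.0277). Against single autosomes the shares were 11.6% on III and 13.8% on IV, which X exceeded (adjusted p = 0.00405 and 0.00704, same exact test), and 24.8% on II and 23.3% on V, from which it was not shown to differ (adjusted p = 0.556 and 0.308, same exact test).

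The other X sites were 31 with support in replicate 1 only, 10 in replicate 2 only and 84 in neither list. On II to V, 97 sites had support in replicate 1 only, 21 in replicate 2 only and 280 in neither. The share without support was 47.5% on X (39.9 to 55.1%) and 56.8% on II to V (52.3 to 61.2%), beside 54.3% of all 670 sites. That difference missed the threshold after adjustment (odds ratio 0.69, Fisher's exact test, p = 0.03495, adjusted p = 0.0579). How the combined list was made is not stated, so it is not treated as independent of the replicate lists, and support is a description of how a site was called.

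Support on X followed strength closely. All of the 38 strongest X sites were in both replicate lists, and among the 30 strongest the weakest still had a −log10 q of 17.6. Of the 100 strongest X sites, 51 were in both lists, and only 1 of the 77 weaker ones was. That weakest site with support in both, at 6207627 to 6208110, had a −log10 q of 5.50 in the combined list, 4.86 in replicate 1 and 4.34 in replicate 2. On II to V the leading run was shorter: the first site without support in both lists was the 17th strongest, a replicate 1 site on chromosome IV with a −log10 q of 37.8. Over the 39 strongest of each, however, both X and II to V had 38 sites in both lists.

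When the 670 sites of X and II to V were ranked together, 39 X sites fell among the strongest 134, and 38 of these (97.4%, exact 95% interval 86.5 to 99.9%) were in both replicate lists. The corresponding figure for II to V was 73 of 95 (76.8%, 67.1 to 84.9%). The X sites of this class were also stronger, with a median −log10 q of 34.3 on X and 19.4 on II to V, and the part of strength in the difference was not tested. Among the next 134 sites, 11 of 29 X sites (37.9%) and 19 of 105 on II to V (18.1%) were in both lists, at medians of 8.67 on X and 9.47 on II to V. Further down, support in both lists was rare everywhere. It was found at 2 of 43 X sites and 3 of 91 sites on II to V in the middle class, at 1 of 33 X sites and 0 of 101 on II to V in the next, and at 0 of 33 X sites and 0 of 101 on II to V in the weakest.

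**Figure D3:**
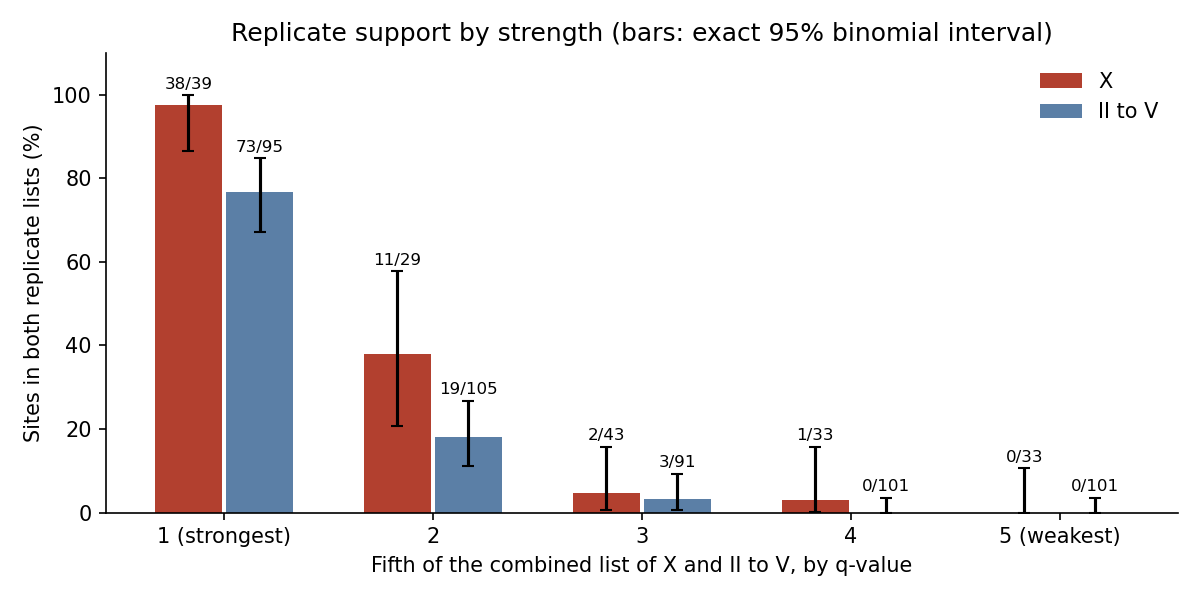
Share of sites in both replicate lists (vertical axis, percent, with exact 95% binomial intervals and counts) for X and for II to V, in 5 classes of 134 sites ranked by q-value over X and II to V together. In the strongest class 38 of 39 X sites and 73 of 95 sites on II to V were in both lists, and in the weakest class none was in either group.

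The strongest X site in neither replicate list, at 14478119 to 14478950, ranked 39th on X with a −log10 q of 12.5. It began 268 bp after the end of the strongest X site of all, the closest spacing on the chromosome. Support in replicate 2 only was strongest at 13144050 to 13145580, with a −log10 q of 11.8 in the combined list and 4.58 in replicate 2. Support in replicate 1 only was strongest at 3111119 to 3112151, with 11.8 in the combined list and 8.14 in replicate 1. The sites of replicate 2 only were not found on the first 25% of X, which held 0 of 10, whereas 9 of the 31 sites of replicate 1 only and 15 of the 52 in both lists lay there. With 10 sites, the difference was described and not tested.

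Seen from the replicate lists alone, most X peaks of replicate 2 were found again, as were most on II to V. Of its 62 X peaks, 52 overlapped replicate 1 (83.9%, 72.3 to 92.0%), and on II to V 99 of 124 did (79.8%, 71.7 to 86.5%; odds ratio 1.31, Fisher's exact test, adjusted p = 0.556). In the other direction 53 of 87 X peaks of replicate 1 overlapped replicate 2 (60.9%, 49.9 to 71.2%) and 99 of 208 on II to V did (47.6%, 40.6 to 54.6%). This second difference just missed the threshold (odds ratio 1.72, Fisher's exact test, p = 0.0413, adjusted p = 0.0579). With an overlap of at least 50% of the shorter peak it passed narrowly (same exact test, p = 0.0299, adjusted p = 0.0489). That adjusted value was set by the p of another comparison in the family, so the crossing is not a property of the overlap rule alone. It also passed in the stronger 50% of each list, where 77.3% of X peaks and 44.7% on II to V were shared (same exact test, adjusted p = 0.00173).

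The X peaks without a partner were weak. In replicate 2 the 10 of them had a median −log10 q of 4.82 and none exceeded 6.63, while the shared X peaks had a median of 11.4. In replicate 1 the 34 unshared X peaks had a median of 5.11 and reached 8.14 at most, against 14.2 for the shared ones. Shared X peaks were also wider, at 698 bp against 462.5 bp in replicate 2 and 745 bp against 585.5 bp in replicate 1 (medians). Neither feature was particular to X. On pooled II to V the unshared peaks had a median −log10 q of 5.13 in replicate 2, against 7.02 for the shared ones. In replicate 1 these medians were 5.46 and 10.1. Shared peaks of II to V had median widths of 595 bp against 535 bp in replicate 2 and 629 bp against 530 bp in replicate 1. Width went the other way on II in replicate 2 and on III in replicate 1.

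Where the replicates shared an X peak, they placed it at nearly the same position and ranked it similarly. For the 51 peaks with exactly 1 partner each, the midpoints differed by a median of 38.5 bp (quartiles 20.8 and 81.5 bp), and 49 of the 51 differed by at most 250 bp. For the 93 such pairs on II to V the median was 56.5 bp (quartiles 25.5 and 111 bp). Pairs were chosen by overlap, which itself limits the distance between midpoints. The paired X peaks had median widths of 731 bp in replicate 1 and 692 bp in replicate 2. Pearson's r between the replicates, on the logarithm of −log10 q, was 0.92 over the 51 X pairs and Spearman's rho was 0.90. On II to V r was 0.86 and rho 0.68 over 93 pairs. With the 2 peaks farthest from the median left out, r was 0.91 on X and 0.82 on II to V. These are correlations across peaks, which share the library and its depth and lack every peak under either list's limit, so they are given as a description. Replicate 1 gave the higher −log10 q in 39 of the 51 X pairs, and the ratio of replicate 1 to replicate 2 had a median of 1.28 and ran from 0.52 to 2.39.

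**Figure D4:**
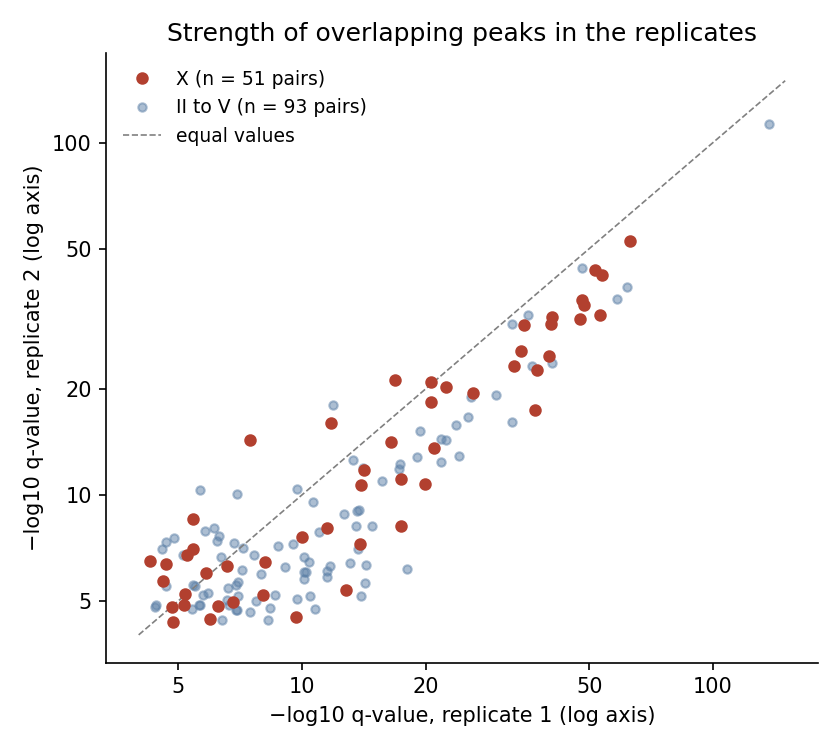
Peaks with exactly 1 partner in the other replicate, by −log10 q-value in replicate 1 (horizontal log axis) and replicate 2 (vertical log axis), for 51 pairs on X and 93 on II to V. Most points lie below the dashed line of equal values, and X pairs reach 62.8 in replicate 1 and 52.7 in replicate 2, values exceeded by 1 pair on II to V, on chromosome V, with 137 in replicate 1 and 113 in replicate 2.

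A few X pairs departed from the common order. The peak at 14510259 to 14510609 in replicate 1 had a −log10 q of 12.8, and its partner in replicate 2 had 5.36, the highest ratio of the 51. At the other end the replicate 1 peak at 7181554 to 7182052 had 7.46, against 14.3 for its partner in replicate 2. In both cases the midpoints were close, at 5.5 and 36.5 bp.

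Sites were spread over X with little difference between its parts. The first 25% of the span held 37 sites (20.9%), the next 47 (26.6%), the third 40 (22.6%) and the last 53 (29.9%). On II to V the corresponding shares were 17.6%, 26.6%, 32.5% and 23.3%. In the central 50%, X had 87 of 177 sites (49.2%, 41.6 to 56.8%) and II to V had 291 of 493 (59.0%, 54.5 to 63.4%). That difference missed the threshold after adjustment (odds ratio 0.67, Fisher's exact test, p = 0.0271, adjusted p = 0.0579). X stood below each of the 4 autosomes, which ranged from 54.5% on II to 63.95% on III. In the replicate lists X was also below the pooled II to V, with 44.8% on X and 57.2% on II to V in replicate 1, and 46.8% on X and 51.6% on II to V in replicate 2, neither past the threshold (adjusted p = 0.0782 and 0.641, Fisher's exact test). In replicate 2 chromosome III, with 3 of 10 peaks in the central 50%, was below X.

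**Figure D5:**
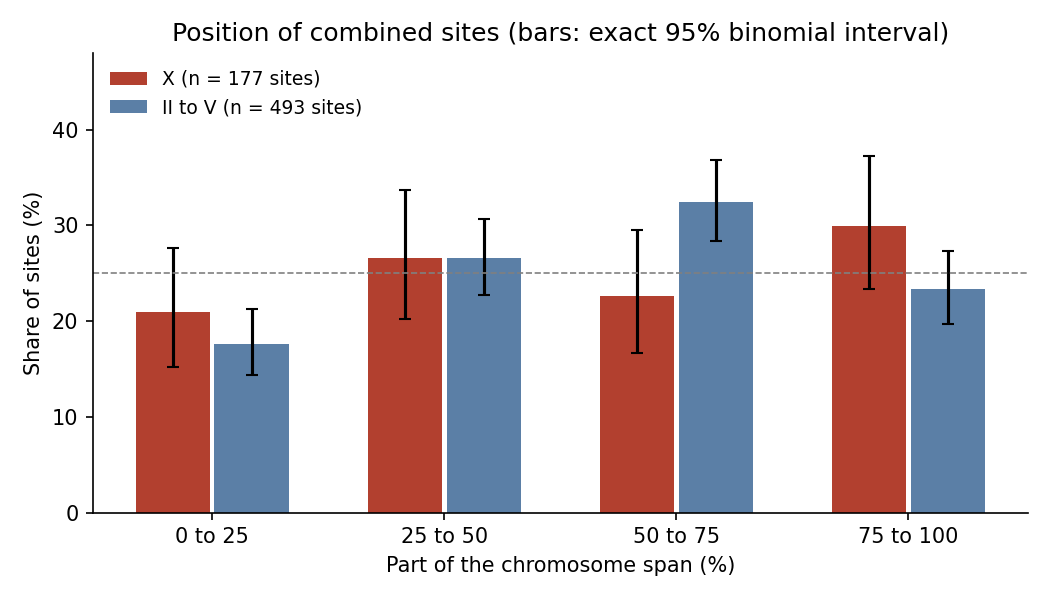
Share of combined sites (vertical axis, percent) in each 25% of the chromosome span for 177 sites on X and 493 on II to V, with exact 95% binomial intervals as bars and a dashed line at an even 25%. The X shares lie between 20.9% and 29.9%, and each of their intervals includes 25%.

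Counted per Mb, the 17 full 1 Mb bins of X held between 4 and 15 sites, with a median of 10 and a mean of 10.1 ± 3.40 (SD over bins). No bin of X was empty, nor was any bin of II, III or IV, where the lowest counts were 2, 3 and 2. Only V had a lowest count of 0. The 65 bins of II to V held between 0 and 16, with a median of 7 and a mean of 7.32 ± 3.68. The variance was 1.15 times the mean on X, and on II to V it was 1.85 times the mean, between 1.11 on III and 2.37 on V. The fullest bin of X, from 7 to 8 Mb, held 15 sites, with 2 in both replicate lists and 9 in neither. The bin from 1 to 2 Mb held 14 sites with 6 in both lists, the highest such number on X. From 15 to 16 Mb there were 12 sites with only 2 in both lists, and the strongest of them reached a −log10 q of 10.8. Bins rich in sites were therefore not always those rich in reproduced or strong sites.

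The left end of X was empty in all 3 lists. The first site lay at 409979 to 410655, and the replicate peaks under it began at 409988 in replicate 1 and 410028 in replicate 2. It was weak, with a −log10 q of 7.27 in the combined list, 4.82 in replicate 1 and 4.80 in replicate 2. The first sites of II, III, IV and V began at 24.2, 355, 192 and 104 kb. On the right end the last X site, at 17545481 to 17545682, was in neither replicate list, had a −log10 q of 4.25 and lay 680 bp after a site of replicate 1 only. The last site in both lists was at 17479392 to 17480562, at 99.6% of the span. The span is the highest peak end in any list, so this right end is a property of the peaks and not of the chromosome.

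Neighbouring X sites were a median of 66.1 kb apart from end to start (quartiles 22.4 and 141 kb), and those on II to V 73.6 kb (12.7 and 187 kb). The longest stretch without a site on X ran for 841 kb between 3128124 and 3969445. No replicate peak lay wholly inside it. Longer ones were found on IV, at 1015 kb, and on V, at 2053 kb. X gaps, from 268 bp to 841 kb, thus covered a narrower range than the pooled gaps of II to V. This did not hold for each autosome. On II gaps ran from 375 bp to 774 kb, a narrower range than on X, and on III from 242 bp to 796 kb.

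Short gaps were not more frequent on X than on pooled II to V. Of 176 X gaps, 16 were at most 2000 bp (9.09%, 5.29 to 14.3%), and of 489 on II to V 56 were (11.5%, 8.77 to 14.6%; odds ratio 0.77, Fisher's exact test, adjusted p = 0.556). Single autosomes lay on both sides of X, with 5.83% on II, 7.06% on III, 15.6% on IV and 14.8% on V. The 16 X gaps joined 28 sites into 12 runs, 9 of 2 sites, 2 of 3 and 1 of 4. The longest run spanned 8.42 kb from 4140915 to 4149332. Its members reached a −log10 q of 30.1 at the right end and 5.47 at the left end, and the 2 right-hand sites were in both replicate lists.

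In 6 of the 12 runs a site in both replicate lists stood beside one that was not, 1 run had both of its sites in both lists, and 5 had none. After the pair beside the strongest site, the closest spacings were 346 bp, between 6252164 to 6252808 and 6253155 to 6256076, and 427 bp, between 4140915 to 4141774 and 4142202 to 4143407. In the pair 346 bp apart the left site was in neither list with a −log10 q of 4.11 and the right one was in both with 26.4. In the other pair the left site was in neither list and the right one in replicate 1 only. The run at 11603026 to 11606425 differed, with both of its sites in both replicate lists and values of 17.6 and 16.7. Of the 15 strongest X sites, the nearest neighbour lay 268 bp to 124 kb away. Whether such neighbours are separate binding events or 1 enriched stretch called as several peaks was not tested.

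Over the whole combined list, X sites were about as wide as those of the autosomes. The median width was 602 bp on X (quartiles 424 and 908 bp) and 575 bp on II to V (418 and 952 bp), and the exact 95% intervals of the medians overlapped (531 to 677 bp on X and 547 to 618 bp on II to V). In replicate 1 the median was 693 bp on X (interval 616 to 825 bp) and 575 bp on II to V (521 to 623 bp). In replicate 2 it was 672 bp on X (598 to 728 bp) and 582.5 bp on II to V (465 to 673 bp). Together the X sites covered 129 kb, or 0.734% of the X span, and those of II to V 398 kb, or 0.595%. No test was applied to widths, which the peak caller sets along with the signal.

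Sites in both lists were the widest class by median on X and also on pooled II to V. X sites in both lists had a median of 901 bp, those of replicate 1 only 652 bp, those of replicate 2 only 447 bp and those in neither 468.5 bp. On II to V the corresponding medians were 735, 654, 472 and 516.5 bp. Width did not rise with support throughout, since sites of replicate 2 only were narrower than those in neither list. On III sites in both lists (704 bp) were narrower than those of replicate 1 only (776 bp). On II they (742.5 bp) were slightly narrower than the 4 sites of replicate 2 only (747.5 bp). Of 38 X sites wider than 1000 bp (21.5% of X sites), 22 were in both lists and 5 in neither. On II to V 101 sites (20.5%) were that wide, 32 of them in both lists and 36 in neither. The X sites over 2000 bp numbered 4 (2.26%), and all 4 were in both lists. On II to V 16 sites (3.25%) exceeded 2000 bp, with 9 in both lists and 2 in neither. The maximum was 3806 bp on X and 12760 bp on II to V.

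The widest X site, at 6741333 to 6745138, had a −log10 q of 34.2 in the combined list, 11.8 in replicate 1 and 16.0 in replicate 2. Its replicate peaks covered only the right part, from 6743624 in replicate 1 and from 6743254 in replicate 2. The second widest, at 6253155 to 6256076, measured 2922 bp with 26.4 in the combined list, 17.4 in replicate 1 and 11.1 in replicate 2. The third, at 16929296 to 16931967, was the one that replicate 1 split into 2 peaks.

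Nearly every replicate peak on X overlapped a combined site. All 62 X peaks of replicate 2 overlapped a combined site, and 84 of 87 of replicate 1 did. The 3 exceptions, all weak and without a replicate 2 partner, were at 15408482 to 15408830 (−log10 q of 5.06), 10666818 to 10667704 (4.90) and 2970920 to 2971993 (4.42). The nearest combined sites lay 32.2, 97.7 and 24.3 kb from them. They add 3 candidate positions to the 177 sites and change none of the counts above. Such overlap was not particular to X. Of the X peaks without a partner in the other replicate, 31 of 34 in replicate 1 and 10 of 10 in replicate 2 overlapped a combined site. On II to V 101 of 109 in replicate 1 and 23 of 25 in replicate 2 did.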

How the data were processed

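Peaks were called with PeakSeq on WormBase WS180, per the file headers and columns. The deposited score is a q-value per peak, from the authors. Not given in the sources used here are the PeakSeq version, the aligner, the control, the q-value limit and how the combined list was made. Peaks were grouped by chromosome from the lists and samples by their titles. The input samples entered no computation.

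The span of a chromosome is the highest peak end in any list, a lower bound of its length. Site density was compared with two-sided exact binomial tests, shares with two-sided Fisher's exact tests, both adjusted over 7 comparisons (Benjamini-Hochberg, threshold 0.05). For an alternative, its p replaced the main one in that family. Alternatives were not adjusted against each other. An adjusted p near the threshold depends also on the other p-values of the family. These tests treat peaks as independent, which neighbouring peaks are not. Intervals of shares are Clopper-Pearson.

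The members, comparisons and rules were chosen with earlier results of these data known. Named positions follow a fixed rule (15 strongest X sites, strongest per support class, 3 widest, 3 closest pairs, first and last, sites over several replicate peaks, replicate peaks outside the combined list). Other positions were named with their values in view.

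The alternatives tried were other overlap rules, stronger sublists, single replicate lists, merged peaks, other gap and centre limits, and protein-coding gene numbers of WBcel235. The tests were also run on simulated peak lists. No outcome of those runs is given here, so they are not evidence that the p-values hold for neighbouring peaks, which are not independent. The tests ran in SciPy 1.17.1 and pandas 2.3.3 under Python 3.11.15, with NumPy 2.4.6, and matplotlib 3.10.9 drew the plots.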

Additional observations from a re-analysis of the deposited data

How the results depend on the processing

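Of 46 alternative values, 35 kept their direction and side of the threshold, or stayed inside the interval of a value without a test, and none reversed. The rate ratio of X over II to V lay between 1.16 and 2.09. It missed the threshold in the stronger 50% of the list (1.36), against the central 50% of II to V (1.16), against II alone (1.26) and against V alone (1.29). It held with gene number as the expected share (1.89), with peaks merged within 2000 bp (1.41) and in sites of both lists (2.09). It also held in the replicate 1 list taken alone (1.60) and in the replicate 2 list taken alone (1.91). The value of 2.09 follows from the main density ratio and the shares of sites in both lists, so it is not separate support. The share of X sites in both lists (29.4%) missed the threshold against II alone and V alone. The share of replicate 1 X peaks found in replicate 2 passed with an overlap of 50% of the shorter peak (60.9%), with midpoints within 250 bp (56.3%) and in the stronger 50% of each list (77.3%). The overlap and midpoint rules passed only narrowly (both adjusted p = 0.0489, Fisher's exact test). Median X width moved to 843.5 bp in the stronger 50% (interval 783 to 1002 bp), against 710 bp on II to V (621 to 809 bp). In the replicate lists themselves median X width was 693 bp in replicate 1 and 672 bp in replicate 2. The comparisons with single autosomes and with centres or outer parts, and short gaps among sites of both lists, were chosen after seeing the data. The cause of these changes was not tested. No paired analysis was possible because the groups that share replicate numbers are ChIP and input, and input values were not analysed here; each replicate list gave its own ratio of X over II to V, 1.60 in replicate 1 and 1.91 in replicate 2. With depth unknown, absence from a list says only that no peak was called there.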

Other observations

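X sites in both replicate lists were stronger in the combined list than in either replicate list, with 1 exception. Over the 52 sites the combined −log10 q was a median of 1.58 times that of replicate 1 and 2.09 times that of replicate 2, and it was higher at 51 and at all 52 of them. The exception was the site at 10859056 to 10859370, with 8.07 in the combined list, 9.66 in replicate 1 and 4.48 in replicate 2. Among the 31 sites of replicate 1 only, the median ratio was 1.34 and the combined value was higher at 29, and among the 10 of replicate 2 only it was 1.20 and higher at 8. A q-value depends on depth, which is unknown here, so the ratios describe the lists and not the amount of bound protein.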
